A study of Mus musculus with 3 samples.

Results

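Transcripts of 31 genes of cholesterol and fatty acid synthesis were compared in 3 cultured populations of JC, a mouse mammary carcinoma line labelled as epithelial-like. The genes were taken by symbol from a fixed list. All 31 were among the 55471 features of the table, none with a repeated symbol, and all 31 reached the mean of 1 TPM over the libraries that 14527 features reached. TPM is a transcript level scaled by gene length and library total, so the level of a gene can be compared between libraries. The gene length was the annotated exon length, not that of the transcripts present in these cells. Some members also share sequence with other genes. TPM of different genes can therefore be compared only roughly, and rankings of genes below are rankings of TPM.

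The design text describes a stepwise selection in mice. JC-WT carries WT as its treatment label, with no further description. JC-P was recovered from tumours in the mammary fat pad at day 14. JC-M3 was derived from JC-P by 3 rounds of tail vein injection, each followed by isolation of cells from lung metastases, with lesions taken at day 28 after injection. All 3 share the genotype label WT and were grown in DMEM with fetal bovine serum before RNA was taken. The treatment label of JC-P reads metastasis, like that of JC-M3, so its fat pad origin rests on the protocol text. Each population is represented by 1 library of polyadenylated RNA. A ratio therefore describes a pair of libraries, no test was possible, and intervals given below are 95% exact counting intervals that leave out variation between cultures.

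Reads assigned to genes, recovered from the TPM values, numbered 18093426 (JC-WT), 22132593 (JC-P) and 23386413 (JC-M3), and the listed genes took between 63 and 28518 of them each. Of 12 epithelial markers, 3 reached a mean of 1 TPM. Krt8 was abundant, between 681 and 1873 TPM and lowest in JC-M3, while Epcam had 0 reads in all 3 libraries and Cdh1 stayed below 1 TPM. The 3 measured were the keratins Krt8, Krt18 and Krt7. Most markers of other lipid-producing cells were at or near 0. None of 10 adipocyte markers and none of 8 secretory mammary markers reached a mean of 1 TPM over the libraries, with sums of at most 0.284 and 1.32 TPM per library. Of 10 alveolar type 2 markers, Abca3 (31.9 to 38.1 TPM) and Etv5 (53.4 to 76.7 TPM) were measured. Sftpc, Sftpb, Sftpa1 and Sftpd had 0 reads. Fibroblast markers, 7 of 10 measured, summed to 222 TPM (JC-WT), 418 TPM (JC-P) and 1093 TPM (JC-M3), with Lum and Thy1 at 0 reads. Col1a1 made up most of each sum, at 132 (JC-WT), 261 (JC-P) and 949 TPM (JC-M3). Of the 7 measured, 4 were higher in JC-M3 than in JC-P and 3 lower. Col3a1 was among the lower ones, at 8.76 TPM (JC-M3) against 46.0 TPM (JC-P). Endothelial markers, 2 of 10 measured, summed to 7.97 TPM (JC-WT), 36.0 TPM (JC-P) and 3.13 TPM (JC-M3), with Kdr and Cldn5 at 0 reads. Myeloid markers, 3 of 10 measured, summed to between 50.1 and 70.8 TPM with Ptprc at 0 reads. The sum of the 10 proliferation markers lay between 1628 and 2107 TPM, lowest in JC-P. Of these 10, 8 were lower in JC-P than in JC-WT and 2, Mki67 and Top2a, were higher. The part of these differences in the results below was not tested. In bulk RNA, fewer cells of a type and less RNA per cell cannot be told apart.

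Cells build cholesterol from acetyl-CoA through mevalonate, isoprenoid diphosphates, squalene and lanosterol, and build fatty acids from the same acetyl-CoA through malonyl-CoA. The transcription factors SREBP1 and SREBP2, encoded by Srebf1 and Srebf2, drive many genes of both routes. When sterols are low, the escort protein SCAP carries the SREBP precursors from the endoplasmic reticulum to the Golgi, where proteases release the active factor. When sterols are plentiful, INSIG proteins hold the complex back. Tumour cells in culture draw lipids both from this synthesis and from serum.

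The pathway was expressed in all 3 populations, and no member differed 2-fold in any comparison on the scale of TPM + 0.5 used for every fold threshold here. The members summed to 3200.5 (JC-WT), 3258 (JC-P) and 2715 TPM (JC-M3), which was 0.320% (JC-WT), 0.326% (JC-P) and 0.271% (JC-M3) of all TPM. The JC-P sum was thus 1.02 times that of JC-WT, whereas the JC-M3 sum was 0.833 times that of JC-P. Levels spanned a wide range. Scd2 had the highest TPM of the members in every library and Tm7sf2 the lowest. Scd1, Scd2 and Fasn together made up 41.1% (JC-WT), 41.9% (JC-P) and 38.0% (JC-M3) of the member sum. For the other 28 genes the ratio of the JC-M3 sum to the JC-P sum was 0.890, so the lower JC-M3 total did not rest on those 3 genes alone. The largest single difference was still that of Scd2, at 794 TPM (JC-P) and 551 TPM (JC-M3), followed by Scd1, at 292 and 195 TPM. Fasn was not lower, at 279 TPM (JC-P) and 284 TPM (JC-M3).

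**Figure D1:**
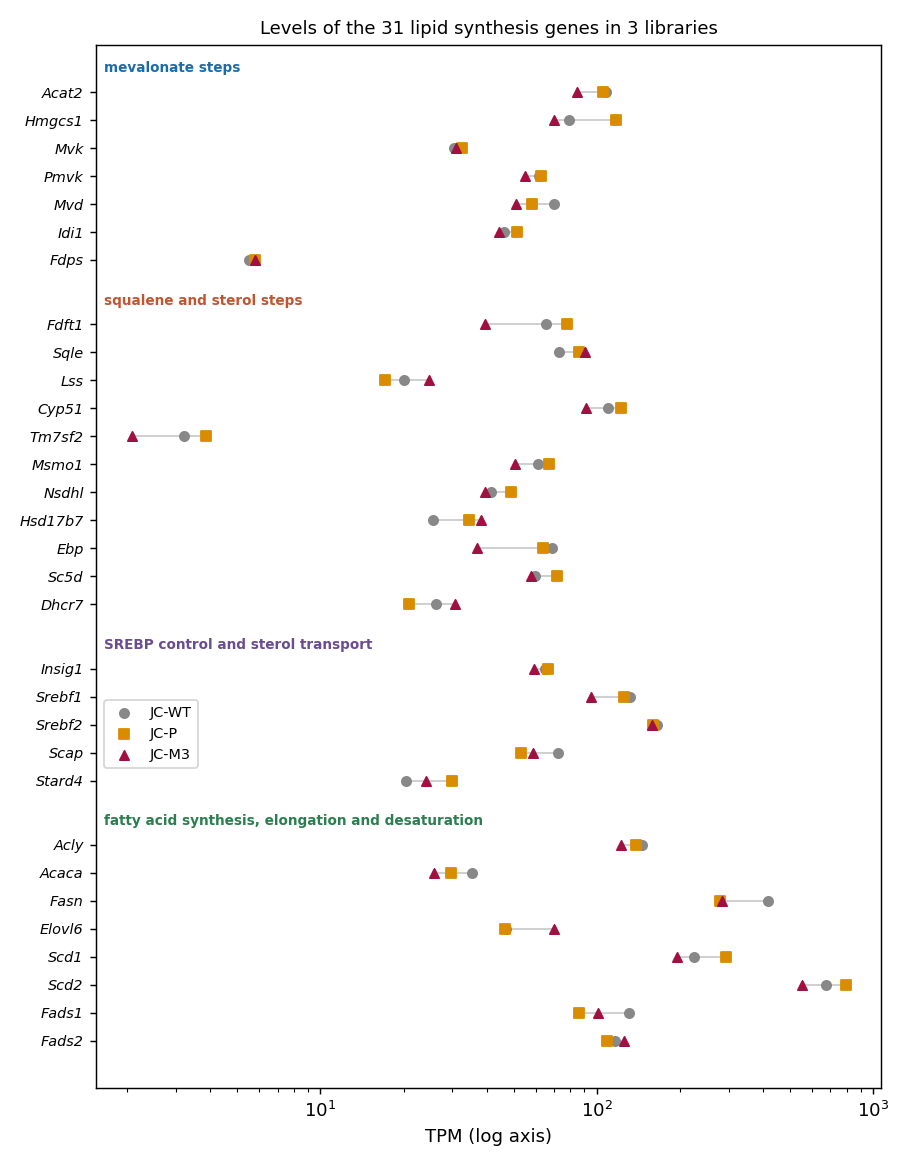
TPM of each of the 31 genes (log axis) in JC-WT (circles), JC-P (squares) and JC-M3 (triangles), 1 library each, with a grey line joining the lowest and highest library. The 3 symbols of most genes sit close together compared with the spread between genes, and the JC-M3 symbol is leftmost for 19 of the 31.

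**Figure D2:**
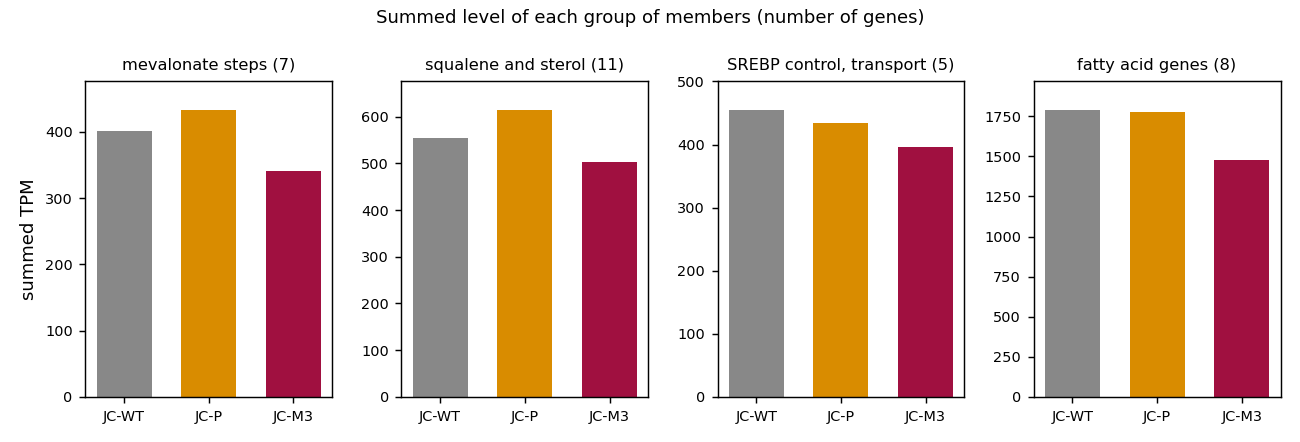
Summed TPM of the members in each of 4 functional groups, by stage, 1 library each, with bars starting at 0 and no error bars because there are no replicates. In every group JC-M3 has the lowest bar, and in the mevalonate and sterol groups JC-P has the highest. In the fatty acid group 4 of the 8 genes were nonetheless higher in JC-M3 than in JC-P, and by far the largest falls in TPM were those of Scd2 and Scd1.

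For JC-P over JC-WT the ratios were centred near 0. The median log2 ratio of TPM + 0.5 was 0.04 over the 31 members and 0.01 over all measured features, with 17 members above 0 and 14 below. None of the members was at least 2-fold higher, against 4.76% of features, and none at least 2-fold lower, against 2.33%. At 1.5-fold, none was higher, against 12.0% of features, and 1 of 31 was lower, the desaturase gene Fads1, against 6.90%. Small differences often exceeded counting error in both directions. The interval lay above no change for 12 members, against 27.2% of features, and below it for 11, against 28.1%. The shares of the 31 members were 38.7% above and 35.5% below. Among features with a mean of 10 TPM or more the shares were 30.2% above and 37.5% below. Of the 29 members past that floor, 12 lay above and 11 below. The floor does not match features to members in level.

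For JC-M3 over JC-P most members were slightly lower. The median log2 ratio was -0.19, beside -0.01 for all features, with 9 members above 0 and 22 below. Fdps and Srebf2, both close to 0, crossed it with median-of-ratios or trimmed mean scaling. Again none was 2-fold higher (3.82% of features) or 2-fold lower (5.38%). Fdft1, Ebp, Tm7sf2 and Hmgcs1 were at least 1.5-fold lower, which is 12.9% of the members beside 13.3% of features. Elovl6 alone was at least 1.5-fold higher, beside 10.0% of features. The share past 1.5-fold downwards was near the background, whereas small downward differences were frequent. The intervals lay below no change for 19 members, or 61.3%, beside 30.1% of features, and above it for 7, or 22.6%, beside 29.5%. Intervals are narrower for abundant genes, and the median member level in JC-P was 66.3 TPM against 19.5 TPM for all measured features. At a mean of 10 TPM or more, 34.9% of 9474 features had intervals below no change and 36.6% above it.

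Set against JC-WT, JC-M3 gave a median log2 ratio of -0.19, beside 0.00 for all features, again with 9 members above 0 and 22 below. No member was 2-fold higher (6.14% of features) or 2-fold lower (5.27%). Ebp and Fdft1 were at least 1.5-fold lower, beside 12.5% of features, and none was 1.5-fold higher, beside 14.0%. Intervals lay below no change for 18 members, beside 30.5% of features, and above it for 7, beside 29.6%. Of features at 10 TPM or more, 37.9% lay below and 33.7% above. This comparison shares its libraries with the others and is no separate support. Across the stages, JC-M3 was the lowest library for 19 of 31 members and for 35.7% of features. In 12 members JC-P was highest and JC-M3 lowest, an order seen in 16.5% of features. The span from lowest to highest library was ordinary, with a median ratio of 1.37 for members and 1.40 for all features on the scale of TPM + 0.5.

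**Figure D3:**
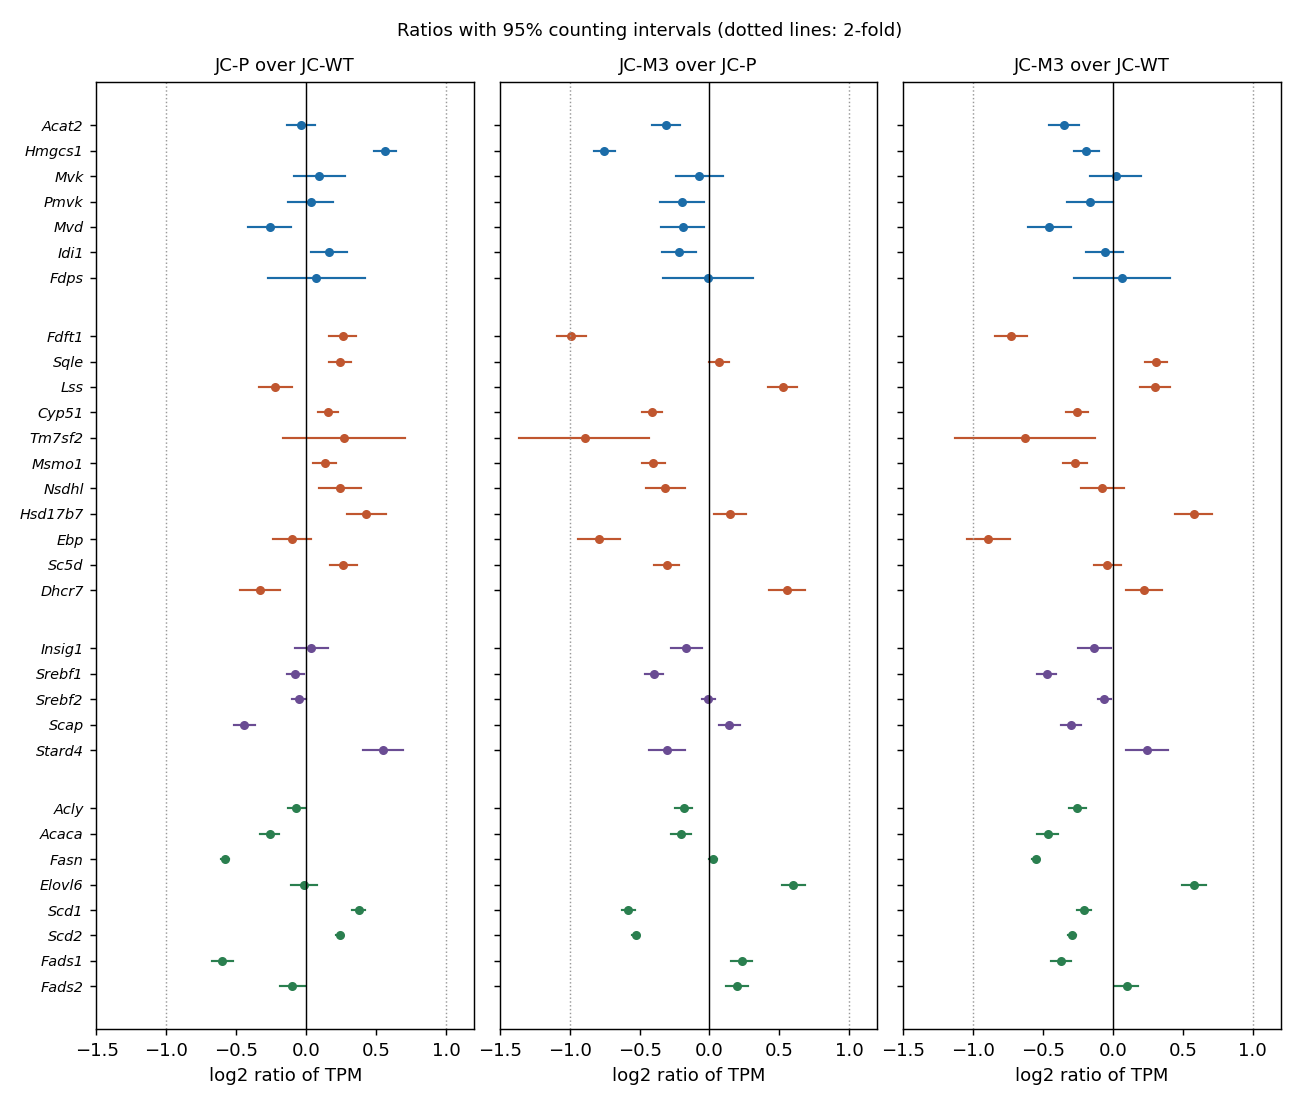
Log2 ratio of TPM for each member in each comparison (points) with its 95% counting interval (lines), coloured by functional group, with dotted lines at 2-fold and 1 library per population. All points lie between the dotted lines, and in the middle panel 22 of 31 lie left of 0.

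**Figure D4:**
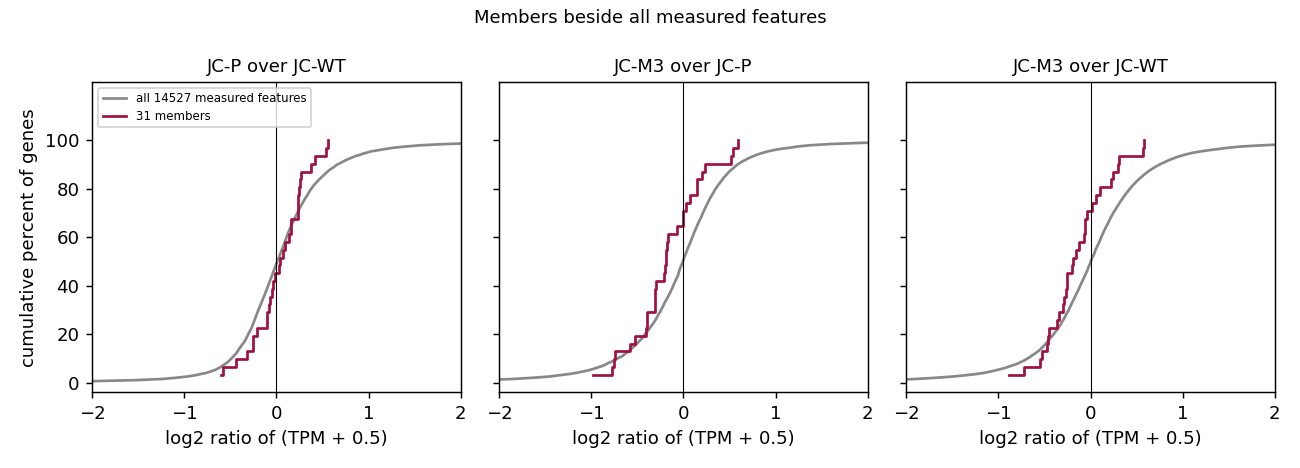
Cumulative percent of the 31 members (red steps) and of all 14527 measured features (grey) by log2 ratio of TPM + 0.5, for each comparison. The curves cross near 0 for JC-P over JC-WT, and for both comparisons of JC-M3 the members lie left of the features around 0. In every panel the members end inside 2-fold, where the curve of the features goes on.

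The mevalonate group covers the steps to farnesyl diphosphate. Its 7 genes summed to 401 TPM (JC-WT), 434 TPM (JC-P) and 342 TPM (JC-M3), and all 7 log2 ratios of JC-M3 over JC-P were below 0, though that of Fdps turned positive with median-of-ratios or trimmed mean scaling. Acat2, the cytosolic thiolase that joins acetyl-CoA units, stood at 108 (JC-WT), 105 (JC-P) and 85.0 TPM (JC-M3). Of its windows of 50 transcript bases, 39.1% also occur in the paralog Acat3, and 11.2% lie opposite Tcp1, so its level is uncertain. Hmgcs1, the HMG-CoA synthase, varied most in this group, at 79.4 TPM (JC-WT), 117 TPM (JC-P) and 69.7 TPM (JC-M3). It was high in JC-P only, with a JC-P to JC-WT ratio of 1.48 (1.40 to 1.56) and a JC-M3 to JC-P ratio of 0.594 (0.563 to 0.627). Its promoter is shown because, of the 24 members with a promoter to search, it alone matched TCACNCCAC. These letters are the pattern used here for the core of the sterol regulatory element, which SREBPs bind. The upper window, chr13:119690189-119690247 on the plus strand of GRCm38, holds that core in capitals, at -137 to -129 from the RefSeq start site. The lower window, chr13:119690281-119690335, holds an inverted CCAAT box, ATTGG, in capitals, at -45 to -41.
Hmgcs1 sterol element: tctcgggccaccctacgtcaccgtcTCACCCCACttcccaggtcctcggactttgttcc
Hmgcs1 CCAAT box: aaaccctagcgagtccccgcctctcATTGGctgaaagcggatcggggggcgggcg

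Further along, the kinases and the decarboxylase that make isopentenyl diphosphate differed less. Mvk, mevalonate kinase, stood at 30.4 (JC-WT), 32.5 (JC-P) and 30.9 TPM (JC-M3), with all 3 intervals spanning no change. Pmvk, the next kinase, stood at 61.6 TPM (JC-WT), 63.0 TPM (JC-P) and 55.0 TPM (JC-M3). Mvd, the decarboxylase, was lower at each stage, with 69.8 (JC-WT), 58.2 (JC-P) and 51.0 TPM (JC-M3), a JC-M3 to JC-WT ratio of 0.731 (0.656 to 0.814). The isomerase gene Idi1 followed the order of Hmgcs1 with a smaller span, at 46.0 TPM (JC-WT), 51.5 TPM (JC-P) and 44.2 TPM (JC-M3), and 25.3% of its windows occur in other genes. Fdps, which makes farnesyl diphosphate, was level, and its TPM was far below that of its neighbours in the route. It stood at 5.53 (JC-WT), 5.82 (JC-P) and 5.78 TPM (JC-M3), from 125, 161 and 167 reads in the same order. Its level is uncertain. Of its 50-base windows, 26.2% also occur in other genes. The largest share, 23.4%, occurs in Gm43738, listed at 0 TPM in all 3 libraries. A share of 12.1% occurs in Gm3571, annotated as a farnesyl diphosphate synthetase pseudogene. Gm3571 was listed at 47.5 TPM (JC-WT), 49.2 TPM (JC-P) and 36.6 TPM (JC-M3), and 52.8% of its own windows occur in the members.

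The squalene and sterol group, 11 genes from squalene synthase to the last reductase in the list, summed to 554 (JC-WT), 615 (JC-P) and 502 TPM (JC-M3). Its members divided in both comparisons. For JC-P over JC-WT, 8 were above 0 and 3 below. Comparing JC-M3 with JC-P, 4 were above 0 and 7 below. The genes lower in JC-M3 included those at the largest distance from 0 among all members. Fdft1, squalene synthase, the first step committed to sterols, stood at 65.2 TPM (JC-WT), 78.2 TPM (JC-P) and 39.4 TPM (JC-M3). The JC-M3 to JC-P ratio was 0.504 (0.469 to 0.542), just inside 2-fold. The gene lies at chr14:63145150-63179578 on GRCm38. Fdft1 transcripts share 17.2% of their windows, on the opposite strand, with the neighbouring cathepsin gene Ctsb, which stood at 449 (JC-WT), 544 (JC-P) and 349 TPM (JC-M3). The strand setting of the counting is not given in the sources used here, so reads in that stretch cannot be told apart, and their part in the ratio was not tested. Ebp, the sterol isomerase, had no shared windows and stood at 68.6 TPM (JC-WT), 63.9 TPM (JC-P) and 37.0 TPM (JC-M3). Its JC-M3 level was 0.579 times that of JC-P (0.521 to 0.642) and 0.539 times that of JC-WT (0.485 to 0.600), which no other member went below in that comparison. Tm7sf2, a sterol C14 reductase, stood at 3.22 (JC-WT), 3.87 (JC-P) and 2.09 TPM (JC-M3). With 63 reads in JC-M3 and 112 in JC-P its ratio of 0.539 had a wide interval (0.389 to 0.740). Of its windows, 9.87% also occur in Vps51, at 17.4 (JC-WT), 16.9 (JC-P) and 17.2 TPM (JC-M3), so the level of Tm7sf2 is uncertain.

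A set of demethylation and desaturation genes shared the order of JC-P highest and JC-M3 lowest with modest spans. Cyp51, the lanosterol demethylase, stood at 110 TPM (JC-WT), 122 TPM (JC-P) and 91.7 TPM (JC-M3). Msmo1, the methylsterol oxidase acting after it, stood at 61.2 (JC-WT), 67.1 (JC-P) and 50.7 TPM (JC-M3). The JC-M3 to JC-P ratios were 0.751 (0.715 to 0.790) for Cyp51 and 0.756 (0.714 to 0.801) for Msmo1. Nsdhl, the dehydrogenase of the same demethylation, stood at 41.5 TPM (JC-WT), 49.1 TPM (JC-P) and 39.4 TPM (JC-M3). Sc5d, the sterol desaturase, stood at 59.5 (JC-WT), 71.6 (JC-P) and 57.9 TPM (JC-M3). For both, the interval of JC-M3 over JC-WT spanned no change.

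In other sterol genes the highest value was that of JC-M3. Sqle, squalene epoxidase, a rate-limiting step of the sterol branch, stood at 73.0 TPM (JC-WT), 86.4 TPM (JC-P) and 90.5 TPM (JC-M3). Hsd17b7, the ketoreductase of sterol demethylation, stood at 25.5 (JC-WT), 34.4 (JC-P) and 38.1 TPM (JC-M3), with a JC-M3 to JC-WT ratio of 1.49 (1.36 to 1.64). Both were lowest in JC-WT, and for Sqle the interval of JC-M3 over JC-P included no change. Lss, lanosterol synthase, stood at 20.0 TPM (JC-WT), 17.2 TPM (JC-P) and 24.7 TPM (JC-M3). Dhcr7, the reductase that makes cholesterol from 7-dehydrocholesterol, stood at 26.3 (JC-WT), 20.9 (JC-P) and 30.6 TPM (JC-M3). For these last genes JC-P was lowest, and the JC-M3 to JC-P ratios were 1.44 (1.34 to 1.55) for Lss and 1.47 (1.34 to 1.61) for Dhcr7.

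Promoters are shown for sterol genes that differed in opposite directions and carried the same box. The lines give, in the gene's direction, bases before the RefSeq start site on GRCm38, with the CCAAT box in capitals, as ATTGG or CCAAT depending on its strand. Cyp51 (chr5:4104698-4104751, minus strand), Msmo1 (chr8:64733604-64733658, minus) and Ebp (chrX:8193538-8193592, minus) were lower in JC-M3 than in JC-P. Lss (chr10:76531518-76531572, plus) was higher.
Cyp51: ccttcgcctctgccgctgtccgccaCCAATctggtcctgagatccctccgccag
Msmo1: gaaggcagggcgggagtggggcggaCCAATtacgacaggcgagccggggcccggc
Ebp: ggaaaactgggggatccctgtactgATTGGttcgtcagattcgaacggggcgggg
Lss: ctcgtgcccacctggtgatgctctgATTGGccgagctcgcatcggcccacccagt

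The promoter table, which runs from 250 bases before each start site to 50 after, matched 24 of the 31 members. It held no entry for Fdps, Fdft1, Sqle, Scd1, Scd2, Fads1 and Stard4. Each motif was sought on both strands, and a gene counted if any of its promoters held it. Dhcr7 counted through 1 of its 3 promoters, at a start site inside the gene, and the others, at the gene's start, held no CCAAT box. The CCAAT box (ATTGG), which binds NF-Y, a known partner of SREBPs, was present in 19 of the 24, or 79.2%, beside 43.5% of 9405 measured genes and 37.4% of all promoters. The GC box (GGGCGG), which binds SP1, was present in 20, or 83.3%, beside 69.6% of measured genes and 35.7% of all promoters. The pattern TCACNCCAC of the sterol element core was matched in Hmgcs1 only, beside 1.32% of measured genes and 1.24% of all promoters. The log2 ratios of members with and without the CCAAT box overlapped in range in every comparison. For JC-P over JC-WT the median was 0.04 with the box and -0.10 without, with 11 of 19 and 0 of 5 above 0. For JC-M3 over JC-P it was -0.19 with and 0.14 without, with 15 of 19 and 2 of 5 below 0. For JC-M3 over JC-WT it was -0.16 with and -0.30 without, with 15 of 19 and 3 of 5 below 0. The members without the box are too few for these medians to be set apart, and the difference was not tested. A match describes these letters in this window and is not evidence of binding. Nor is the lack of a match evidence that a member has no SREBP site, since other spellings and other stretches were not searched.

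The genes of SREBP control differed from each other in their evenness. Srebf2, encoding SREBP2, which favours the cholesterol genes, had the smallest span of all 31 genes, at 166 TPM (JC-WT), 160 TPM (JC-P) and 159 TPM (JC-M3). Srebf1, encoding SREBP1, which favours the fatty acid genes, stood at 132 (JC-WT), 125 (JC-P) and 95.1 TPM (JC-M3). Its JC-M3 to JC-P ratio was 0.760 (0.727 to 0.794), and the level of Srebf1 relative to Srebf2, 0.798 for JC-WT and 0.784 for JC-P, was 0.599 for JC-M3. The table gives 1 value per gene, so the SREBP1a and SREBP1c transcripts cannot be told apart.

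Scap, the sterol-sensing escort, was highest in JC-WT, at 72.5 (JC-WT), 53.4 (JC-P) and 58.9 TPM (JC-M3). The JC-P to JC-WT ratio was 0.736 (0.698 to 0.777). Insig1, which retains the SCAP complex and is itself an SREBP target, stood at 64.7 TPM (JC-WT), 66.3 TPM (JC-P) and 59.1 TPM (JC-M3). This target of the pathway differed little, and only the JC-M3 intervals left out no change. Stard4, a sterol transfer protein and SREBP target, was highest in JC-P, at 20.4 (JC-WT), 29.8 (JC-P) and 24.2 TPM (JC-M3), a JC-P to JC-WT ratio of 1.46 (1.32 to 1.62).

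The fatty acid group had the largest summed TPM. Its 8 genes summed to 1791 TPM (JC-WT), 1775 TPM (JC-P) and 1475 TPM (JC-M3). For JC-M3 over JC-P, 4 of them were above 0 and 4 below, the latter being Scd2, Scd1, Acly and Acaca. In TPM, Scd2 and Scd1 had by far the largest of these falls. The genes of chain building were highest in JC-WT. Acly, which makes cytosolic acetyl-CoA from citrate, stood at 146 (JC-WT), 139 (JC-P) and 122 TPM (JC-M3). Acaca, the carboxylase that makes malonyl-CoA, stood at 35.5 TPM (JC-WT), 29.6 TPM (JC-P) and 25.7 TPM (JC-M3), a JC-M3 to JC-WT ratio of 0.724 (0.689 to 0.761). Of its windows, 29.2% also occur in the pseudogene Gm5182, listed at 21.1 (JC-WT), 17.3 (JC-P) and 15.7 TPM (JC-M3), so the level of Acaca is uncertain. Fasn, fatty acid synthase, stood at 417 TPM (JC-WT), 279 TPM (JC-P) and 284 TPM (JC-M3), with no shared windows. Its JC-P to JC-WT ratio was 0.669 (0.657 to 0.682), while the interval of JC-M3 over JC-P included no change. Fasn lies at chr11:120805846-120824547 on GRCm38.

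Elongation and desaturation genes had orders of their own. Elovl6, which elongates palmitate, stood apart in JC-M3, at 46.9 (JC-WT), 46.4 (JC-P) and 70.2 TPM (JC-M3). The JC-M3 to JC-P ratio of 1.51 (1.43 to 1.60) was the highest of any member in that comparison. Scd1 and Scd2, stearoyl-CoA desaturases that introduce the first double bond, lie 87.6 kb apart on chromosome 19 and had the same order of stages. Scd1 stood at 225 TPM (JC-WT), 292 TPM (JC-P) and 195 TPM (JC-M3). Scd2 stood at 673 (JC-WT), 794 (JC-P) and 551 TPM (JC-M3). Their JC-M3 to JC-P ratios were 0.668 (0.648 to 0.690) for Scd1 and 0.694 (0.682 to 0.707) for Scd2, and the level of Scd1 relative to Scd2 stayed between 0.335 and 0.368 in the 3 libraries. Each shared under 5% of its windows with other genes, at 4.56% and 3.97%.

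The front-end desaturases of polyunsaturated fatty acids had different orders. Fads1, the delta-5 desaturase, stood at 131 TPM (JC-WT), 86.2 TPM (JC-P) and 101 TPM (JC-M3). Its JC-P to JC-WT ratio of 0.660 (0.627 to 0.694) was the lowest of the members in that comparison. Fads2, the delta-6 desaturase on the same chromosome, was close to level, at 117 (JC-WT), 109 (JC-P) and 125 TPM (JC-M3). The level of Fads1 relative to Fads2, 1.12 for JC-WT and 0.792 for JC-P, was 0.810 for JC-M3.

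Genes next to the pathway, from lists fixed beside the members, were mostly within 2-fold as well. Of 10 genes of the isoprenoid branches 9 were measured and none differed 2-fold in any comparison. Nus1, a subunit of the dolichol-making prenyltransferase, stood at 70.3 TPM (JC-WT), 75.6 TPM (JC-P) and 115 TPM (JC-M3). Ggps1, which makes geranylgeranyl diphosphate, stood at 52.0 (JC-WT), 58.8 (JC-P) and 38.9 TPM (JC-M3). Pdss2, for the side chain of ubiquinone, stood at 6.09 TPM (JC-WT), 4.80 TPM (JC-P) and 10.05 TPM (JC-M3), inside 2-fold with the 0.5 TPM added. All 9 genes of SREBP processing and sterol-dependent degradation were measured, again with none past 2-fold. The highest of these for JC-P over JC-WT was Insig2, the paralog of Insig1, at 60.6 TPM (JC-P) against 40.6 TPM (JC-WT). The lowest for JC-M3 over JC-P was Mbtps2, the site-2 protease, at 14.0 TPM (JC-M3) against 19.9 TPM (JC-P).

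Of 22 genes of sterol uptake, transport, esterification and efflux, 17 were measured. For JC-P over JC-WT 1 was at least 2-fold lower, beside 2.33% of features. It was the lipoprotein receptor gene Vldlr, at 3.26 TPM (JC-P) against 7.53 TPM (JC-WT). Between JC-M3 and JC-P 1 was at least 2-fold lower and 1 higher, beside 5.38% and 3.82% of features. The efflux transporter gene Abca1 was lower, at 2.90 TPM (JC-M3) against 9.21 TPM (JC-P). In the same comparison the sterol esterification gene Soat2 was at least 2-fold higher, at 4.22 TPM (JC-M3) against 1.58 TPM (JC-P), from 64 (JC-M3) and 23 (JC-P) reads. Against JC-WT, JC-M3 was at least 2-fold higher for Soat2 and for the endocytic receptor gene Lrp1, beside 6.14% of features. Lrp1 stood at 138 (JC-WT), 228 (JC-P) and 374 TPM (JC-M3), higher at each stage.

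Of 31 other genes of fatty acid synthesis, elongation, desaturation and activation, 23 were measured. For JC-P over JC-WT 2 were at least 2-fold higher and none lower, beside 4.76% of features higher and 2.33% lower. They were Mid1ip1, whose protein activates acetyl-CoA carboxylase, at 9.44 TPM (JC-P) against 2.54 TPM (JC-WT), and Hacd4, a dehydratase of the elongation cycle family, at 35.4 TPM (JC-P) against 14.8 TPM (JC-WT). Both genes also passed 2-fold upwards between JC-M3 and JC-WT, beside 6.14% of features. In JC-M3 they stood at 8.36 TPM for Mid1ip1 and 47.2 TPM for Hacd4. For JC-M3 over JC-P the elongase gene Elovl7 was the 1 gene at least 2-fold lower, beside 5.38% of features. It stood at 1.23 TPM (JC-M3) against 3.56 TPM (JC-P), from 34 (JC-M3) and 94 (JC-P) reads. The next lowest there was Acss2, which makes acetyl-CoA from acetate, at 4.03 TPM (JC-M3) against 7.04 TPM (JC-P).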

How the data were processed

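The values deposited by the authors are TPM per gene, per the file headers. Tools named in the submitters' processing notes are STAR 2.7.9a, featureCounts and FastQC 0.11.9, and the builds named there are mm10 and GRCm38. How strand and multimapping reads were handled, and the annotation release, are not stated in the sources used.

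Ratios are log2 of TPM + 0.5 over 14527 features whose mean reached 1 TPM, with a threshold of 2-fold. Plain TPM ratios stand beside their intervals. TPM times the GENCODE M21 exon length gave whole reads, within 0.01 of a read, for 98.4% to 98.5% of expressed genes, and for 90 of 93 member values (not Fdft1, whose 3 values were rounded to whole reads). From these came exact conditional (Clopper-Pearson) 95% intervals, which cover counting error only. The 50-base windows came from GENCODE transcripts and promoters from RefSeq on GRCm38.p6. The steps were tested on simulated data. Members and lists were chosen with earlier results of these data known. Every member is described. Measured genes of the related lists were named where past 2-fold. Of those among the 2 highest or lowest of their list, only some were named, and Hilpda, Scarb1 and Hacd1 are examples of those left out. Agpat2, some markers and genes that share windows with members were named besides. Software was Python 3.11.15 with scipy 1.17.1, pandas 2.3.3, numpy 2.4.6 and matplotlib 3.10.9.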

Additional observations from a re-analysis of the deposited data

How the results depend on the processing

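The absence of 2-fold differences among the members held with pseudocounts of 0.1 and 2, with filters of 10 TPM or none, and with median-of-ratios scaling, trimmed mean scaling and a total without mitochondrial transcripts. With a threshold of 1.5-fold, 1 member was lower for JC-P over JC-WT, 1 was higher and 4 lower for JC-M3 over JC-P, and 2 were lower for JC-M3 over JC-WT. The member median of JC-M3 over JC-P ranged from -0.20 to -0.17 over these settings, that of JC-M3 over JC-WT from -0.19 to -0.18, and that of JC-P over JC-WT from 0.02 to 0.05. Under either rescaling, 11 members were above 0 and 20 below for JC-M3 over JC-P. Each of 465 recomputed member ratios stayed inside its counting interval. The sign turned for Fdps and Srebf2 in JC-M3 over JC-P, both at -0.01 on the log2 scale as reported and at 0.01 with either rescaling. A filter of 10 TPM leaves out Fdps and Tm7sf2. With 1 library per population no leave-one-out or paired comparison exists, and differences smaller than the unknown spread between cultures cannot be recognised.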

Other observations

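Genes that use the fatty acids made, for glycerolipids and lipid droplets, included some past 2-fold. Of 13 such genes 11 were measured. For JC-M3 over JC-P 2 were at least 2-fold higher and none lower on the scale of TPM + 0.5, beside 3.82% of all features higher and 5.38% lower. Gpam, the acyltransferase that starts glycerolipid synthesis, stood at 9.84 (JC-WT), 10.3 (JC-P) and 31.4 TPM (JC-M3). Dgat2, which completes triglycerides, stood at 1.75 TPM (JC-WT), 1.14 TPM (JC-P) and 3.45 TPM (JC-M3), from 29, 23 and 73 reads. For JC-M3 over JC-WT, Gpam alone was at least 2-fold higher (6.14% of features) and Lipe alone lower (5.27%). Lipe, hormone-sensitive lipase, stood at 15.3 (JC-WT), 12.6 (JC-P) and 6.24 TPM (JC-M3). The droplet coat genes Plin2 and Plin3 were lower in JC-M3, inside 2-fold with the 0.5 TPM added. On plain TPM the JC-M3 to JC-P ratio was 0.496 for Plin3 and 0.496 for Lipe, just past 2-fold. Plin2 stood at 161 (JC-WT), 141 (JC-P) and 83.8 TPM (JC-M3), and Plin3 at 56.5 TPM (JC-WT), 59.3 TPM (JC-P) and 29.5 TPM (JC-M3). The JC-M3 library was thus the highest for Gpam and Dgat2 and the lowest for Lipe, Plin2 and Plin3. It was also the lowest for Lpin1 and for Agpat2, which stood at 109 (JC-WT), 89.9 (JC-P) and 61.5 TPM (JC-M3). Pnpla2 was close to level, at 36.6 TPM (JC-WT), 40.2 TPM (JC-P) and 38.5 TPM (JC-M3). Of the 11 measured, 5 were above 0 and 6 below for JC-M3 over JC-P, so the list had no shared direction.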
